A study of Mus musculus with 20 samples.

Results

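The 48 genes described here encode protein-folding machinery of the endoplasmic reticulum (ER), the cytosol and the mitochondria, with regulators of the unfolded protein response (UPR) and of the heat shock response. They form a list named by function out of 39179 counted genes. By role, 18 fold proteins in the ER, 4 are UPR sensors or factors, 8 serve ER-associated degradation, 2 are translocon subunits, 1 is the heat shock factor gene Hsf1, 12 are cytosolic chaperones or cochaperones and 3 are mitochondrial chaperones. RNA was sequenced from immortalised epithelial cells of C57BL/6J mouse kidney, grown with serum and uridine, in 4 groups of 5 libraries. Rec cells are labelled Fh1 wt re-expressed, clone1 and clone19 are labelled Fh1 deletion, and Fh1_fl_fl cells are labelled Fh1 wt. Fh1 encodes fumarate hydratase, an enzyme of the TCA cycle. Each deletion group is 1 clone. The labels leave unsaid which clone gave rise to Rec, which part of Fh1 was removed and whether libraries of a group were grown separately, so the p-values measure a spread between libraries that may be technical.

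The ER folds secreted and membrane proteins, and its resident chaperones are induced when unfolded proteins accumulate there. ATF6, IRE1 (encoded by Ern1) and PERK sense that state, and cleaved ATF6, XBP1 and ATF4 carry the signal to genes for chaperones, oxidases and degradation. HSF1 plays a like role for chaperones of the cytosol, and mitochondria hold a chaperone set of their own. Tubule epithelium makes many membrane transporters and so relies on ER folding without any added stress.

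Levels are given as CPM, counts per 1000000 after TMM scaling of library totals. Group values are means ± SD of 5 libraries. Fold changes are log2 values with standard errors (SE) from edgeR's quasi-likelihood test, with Benjamini-Hochberg adjusted p over 12671 tested genes, and a gene is called higher or lower at an adjusted p under 0.05. Gene totals ran from 5988447 to 18972176 counts per library (median 10485784). In clone19 replicate 3 the locus Gm42418 took 8.20% of the counts, against a median of 0.314% over all libraries. Fh1 itself had 71.3 ± 7.08 CPM in Rec, 113 ± 5.94 in clone1, 84.8 ± 7.32 in clone19 and 92.4 ± 6.16 in Fh1_fl_fl, a whole-gene level that cannot check the deletion. The Y-linked gene Ddx3y had 0 counts in Rec, clone1 and clone19 and 17.4 ± 1.29 CPM in Fh1_fl_fl, so the groups differ in more than the labelled genotype. All 7 epithelial markers reached 1 CPM in every group. Their sum per library was 3823 to 4320 CPM in Rec, 2148 to 2795 in clone1, 1985 to 2198 in clone19 and 3030 to 3623 in Fh1_fl_fl. The sum hides opposite changes, since Epcam averaged 86.7 CPM in clone1 and 439 in Fh1_fl_fl, and Krt18 802 and 684. In clone1, 2 of the 7 were called higher and 5 lower than Fh1_fl_fl, beside 38% and 40.5% of all tested genes. Of 5 proximal tubule markers 3 reached 1 CPM in each group, while Slc34a1 was at 0 throughout, and their sum per library was 41.8 to 55.4 CPM in Rec, 156 to 233 in clone1, 94.2 to 153 in clone19 and 59.5 to 78.8 in Fh1_fl_fl. Vim, which encodes the mesenchymal filament protein vimentin, averaged 1.16 ± 0.284 CPM in Rec, 567 ± 39.5 in clone1, 69.5 ± 3.34 in clone19 and 7.66 ± 1.01 in Fh1_fl_fl. Summed collecting duct markers reached at most 7.48 CPM. Summed markers of fibroblasts reached 1.87 CPM in Rec, 6.93 in clone1, 15.4 in clone19 and 1.66 in Fh1_fl_fl at most, and those of leukocytes and endothelium at most 21 and 9.8 CPM, in clone19. Of 4 plasma cell markers 1 reached 1 CPM and Igkc was at 0, with a sum per library of 156 to 171 CPM in Rec, 68 to 98.3 in clone1, 60.4 to 73.4 in clone19 and 70.3 to 99.4 in Fh1_fl_fl. The part of these markers in the chaperone results was not tested. In bulk samples, fewer cells of a type and less RNA per cell cannot be told apart.

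Of the 48 members, 47 passed the count filter. Derl3, a derlin of the ER membrane, had 0 counts in all 20 libraries, which allows up to 0.158 to 0.501 CPM depending on the library. Per kilobase of exon, Hsp90ab1 stood at 2591 CPM per kb in Rec, 1667 in clone1, 1681 in clone19 and 1795 in Fh1_fl_fl, and Hspa5 at 276, 553, 533 and 184 CPM per kb in the same order of groups. Some members have near-identical copies, and reads with no unique alignment were kept apart from gene counts, which makes these counts uncertain. The share of 50-base exon stretches found also in another gene was 66.3% for Hspa1a, 62.3% for Hspa1b, 50.1% for Hspb1, 47.5% for Hsp90aa1, 42.1% for Hspd1, 39.4% for Hspa8, 22.8% for Hspe1, 20.6% for Dnaja1 and at most 17.4% for the others.

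ER folding members were mostly higher in both clones than in Fh1_fl_fl cells, while most of the cytosolic chaperone members were lower. Of 47 tested members, 26 were called higher and 7 lower in Rec than in Fh1_fl_fl. Among all tested genes 70.8% were called in Rec, 33.4% higher and 37.4% lower. In clone1, 28 members were called higher and 10 lower, beside 78.6% of all tested genes, 38% higher and 40.5% lower. In clone19, 30 were called higher and 10 lower, beside 72.9% of all tested genes, 36.8% higher and 36.1% lower. These comparisons share the same 5 Fh1_fl_fl libraries. Scaled to library totals, 36.5% of the genes called in Rec were higher, against 47.2% under TMM, and the median of all genes moved to -0.17 in Rec, -0.17 in clone1 and -0.12 in clone19. The median log2 fold change over the members was 0.27 in Rec, 0.39 in clone1 and 0.40 in clone19, and over all tested genes -0.03, -0.03 and 0.00.

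**Figure D1:**
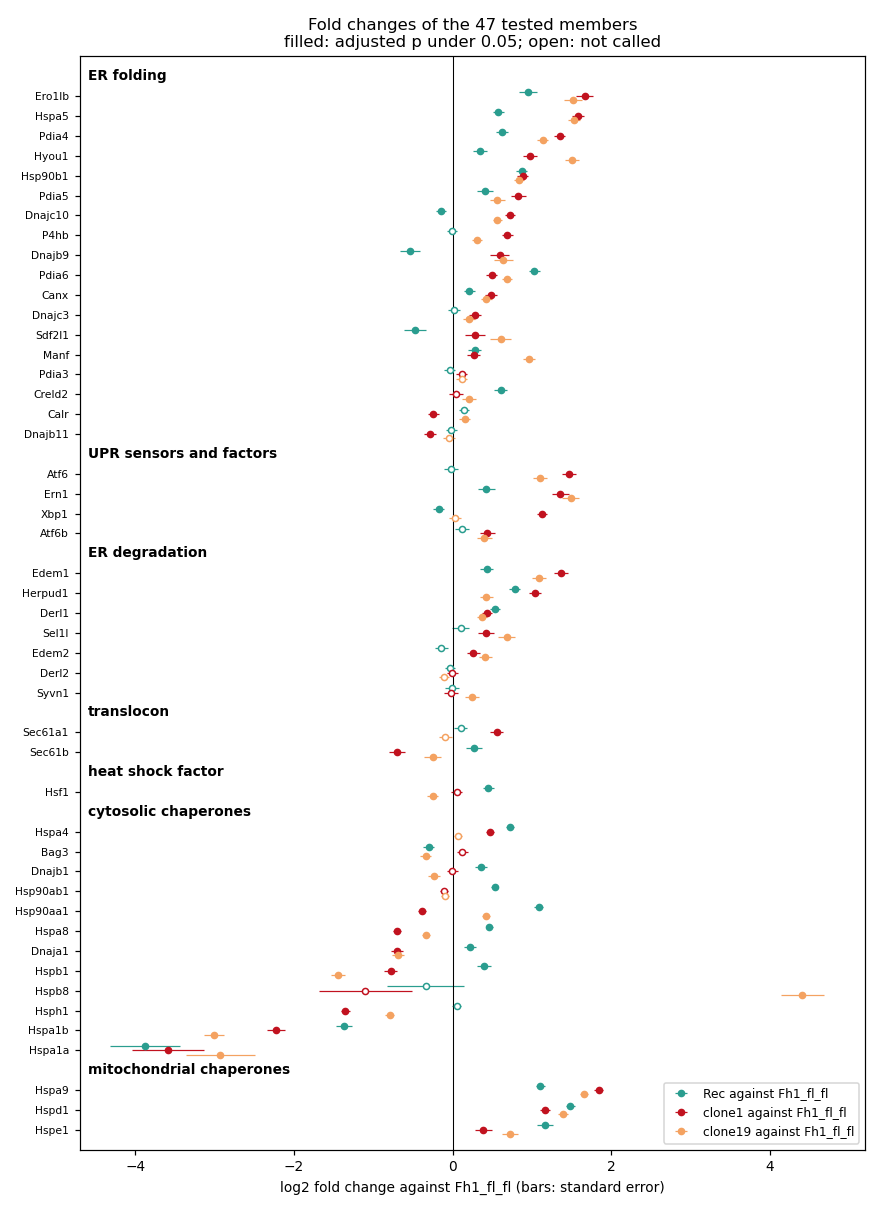
Log2 fold change against Fh1_fl_fl (x axis, bars are standard errors) of the 47 tested members, 1 row per gene grouped by class, in Rec, clone1 and clone19. Filled points are called at an adjusted p under 0.05. Most ER folding genes lie right of 0 in the clones, most cytosolic chaperones lie left of 0 in the clones, and the 3 mitochondrial chaperones lie right of 0 in all 3 groups.

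Hspa5 (ENSMUSG00000026864, chromosome 2, 34771970 to 34777547, plus strand) encodes BiP, the Hsp70 of the ER, which binds unfolded chains and holds the UPR sensors inactive. All coordinates are on GRCm38. Its libraries had 1134, 1252, 1121.4, 1187 and 1133 CPM in Rec, 2550, 2257, 1908, 2222 and 2759 in clone1, 2282, 2403, 2262, 2223 and 2108 in clone19, and 796, 858, 780.2, 756 and 710.1 in Fh1_fl_fl. Every Rec library lay above every Fh1_fl_fl library and below every clone library, and the clones overlapped. Relative to Fh1_fl_fl, Hspa5 was higher by 0.58 (adjusted p = 1.30e-07, SE 0.075) in Rec, 1.58 (adjusted p = 1.84e-16, SE 0.076) in clone1 and 1.53 (adjusted p = 7.21e-16, SE 0.076) in clone19. Rec differed from clone1 by -1.01 (adjusted p = 2.19e-12, SE 0.075) and from clone19 by -0.95 (adjusted p = 1.03e-11, SE 0.075).

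Hsp90b1 (ENSMUSG00000020048, chromosome 10, 86690209 to 86705509, minus strand) encodes GRP94, the Hsp90 of the ER. Its libraries had 1354, 1319, 1184, 1335 and 1325 CPM in Rec, 1333, 1277, 1146, 1338 and 1478 in clone1, 1269, 1373, 1244, 1256 and 1233 in clone19, and 768, 794, 689.6, 663 and 649.7 in Fh1_fl_fl. Rec overlapped both clones, and all 3 groups lay above Fh1_fl_fl. Relative to Fh1_fl_fl it was higher by 0.87 (adjusted p = 8.07e-12, SE 0.067) in Rec, 0.88 (adjusted p = 3.31e-12, SE 0.067) in clone1 and 0.84 (adjusted p = 1.51e-11, SE 0.067) in clone19. Rec differed from clone1 by -0.01 (adjusted p = 0.878, SE 0.067) and from clone19 by 0.03 (adjusted p = 0.676, SE 0.067), neither of them called. Hyou1, an Hsp110-class exchange factor that recharges BiP with nucleotide, averaged 189 ± 13.2 CPM in Rec, 292 ± 37.8 in clone1, 423 ± 35.9 in clone19 and 149 ± 20 in Fh1_fl_fl. It was called higher than Fh1_fl_fl in all 3 groups, and clone1 differed from clone19 by -0.53 (adjusted p = 6.63e-06, SE 0.087).

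**Figure D2:**
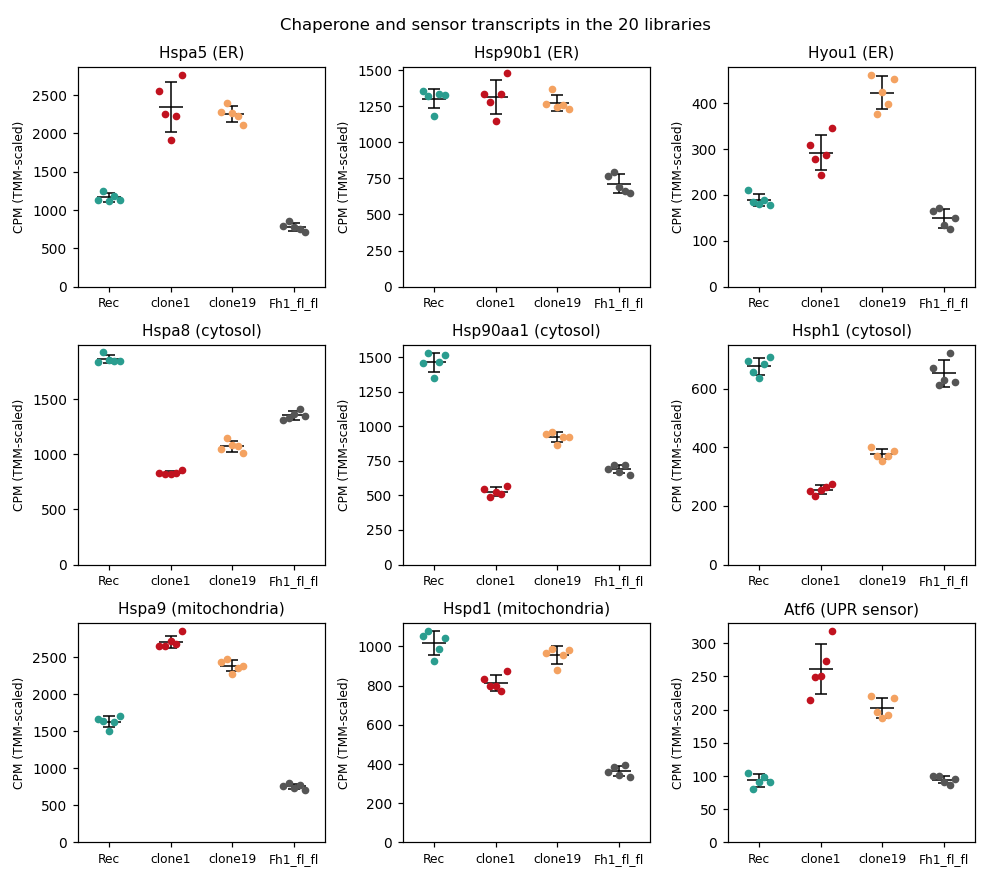
CPM of 9 members (y axis, linear from 0) in each of the 20 libraries (points), with group mean and SD (black). Hspa5 and Hyou1 have their highest means in the clones, Hsp90b1 is alike in Rec and the clones, Hspa8, Hsp90aa1, Hsph1 and Hspd1 have their highest means in Rec, and Atf6 overlaps between Rec and Fh1_fl_fl.

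The ER stress response element consists of CCAAT and CCACG with 9 bases between, and is bound by NF-Y together with ATF6 or XBP1. It was searched on both strands in the 250 bases before each annotated start (RefSeq, GRCm38.p6), and a promoter was matched for 37 of 48 members. Gene coordinates given here are from GENCODE, and the RefSeq start can lie inside them, as for Hspa5, Hsph1 and Hspd1. The element occurred in 7 of 15 matched ER folding genes (Hspa5, Hsp90b1, Pdia6, Creld2, Calr, Canx and Dnajc3), in 2 of 7 ER degradation genes (Derl3 and Syvn1) and in 0 of 9 cytosolic chaperone genes, against 0.1295% of 27025 genes. Stretches of 5 of these genes are shown because the same element precedes genes whose levels ran differently over the groups. With positions counted from the start site, they are Hspa5 at chr2:34771985-34772083 (plus strand, from -105 to -7), Hsp90b1 at chr10:86705493-86705694 (minus strand, from -250 to -49), Pdia6 at chr12:17266451-17266549 (plus strand, from -138 to -40), Creld2 at chr15:88819480-88819578 (plus strand, from -166 to -68) and Calr at chr8:84847035-84847133 (minus strand, from -202 to -104). Each is written 5′ to 3′ on the strand of its gene, and capitals mark the element on either strand.
Hspa5: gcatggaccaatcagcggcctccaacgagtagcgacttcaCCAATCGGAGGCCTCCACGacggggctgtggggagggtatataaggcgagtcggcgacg
Hsp90b1: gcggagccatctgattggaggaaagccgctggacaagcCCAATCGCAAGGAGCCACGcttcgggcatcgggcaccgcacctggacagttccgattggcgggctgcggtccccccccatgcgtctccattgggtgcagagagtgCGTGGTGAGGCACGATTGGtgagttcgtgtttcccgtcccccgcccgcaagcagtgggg
Pdia6: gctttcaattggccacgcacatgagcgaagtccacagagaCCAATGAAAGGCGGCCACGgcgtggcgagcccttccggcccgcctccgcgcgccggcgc
Creld2: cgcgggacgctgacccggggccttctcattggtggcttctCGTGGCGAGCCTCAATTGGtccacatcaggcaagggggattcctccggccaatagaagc
Calr: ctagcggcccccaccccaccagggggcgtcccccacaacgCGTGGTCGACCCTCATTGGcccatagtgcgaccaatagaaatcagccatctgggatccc

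Hspa5, with 1 element in its stretch, and Hsp90b1, with 2, were both called higher than Fh1_fl_fl in Rec and both clones. Hspa5 had its highest means in the clones, and Hsp90b1 was alike in Rec and the clones. Canx and Dnajc3, whose stretches are not shown, also had their highest means in the clones. Pdia6 and Creld2 had their highest means in Rec, and Calr separated the clones. The second ER stress element, ATTGG and CCACG with 1 base between, occurred before Herpud1 and before 0.037% of all genes. TGACGTGG, a core of the UPR element, occurred before 0 matched members and 0.6031% of all genes, and TGATGNAA, a form of the element bound by ATF4 with C/EBP partners, before Herpud1 and 3.907% of all genes. A match describes letters only.

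The disulfide-forming enzymes of the ER did not move as a block. Ero1lb (ENSMUSG00000057069, chromosome 13, 12565874 to 12611396, plus strand), an oxidase that supplies the disulfide isomerases, had 18, 14.7, 14.5, 19.3 and 17.1 CPM in Rec, 27.3, 22.8, 24.1, 30.2 and 32.9 in clone1, 24.1, 27.2, 27, 23.6 and 22.2 in clone19, and 9.7, 8.52, 7.62, 8.03 and 9.08 in Fh1_fl_fl. The Rec libraries lay between those of Fh1_fl_fl and those of the clones without overlap. Relative to Fh1_fl_fl, Ero1lb was higher by 0.95 (adjusted p = 2.49e-08, SE 0.11) in Rec, 1.66 (adjusted p = 1.33e-13, SE 0.11) in clone1 and 1.51 (adjusted p = 2.60e-12, SE 0.11) in clone19. Among the isomerases, Pdia4 averaged 221 ± 7.21 CPM in Rec, 367 ± 51.5 in clone1, 317 ± 10.2 in clone19 and 144 ± 11.6 in Fh1_fl_fl. Pdia5 averaged 27.6 ± 3.28 CPM in Rec, 36.8 ± 5.14 in clone1, 30.9 ± 2.81 in clone19 and 20.8 ± 1.74 in Fh1_fl_fl, so its order of means was that of Pdia4. P4hb, the founding disulfide isomerase, averaged 688 ± 30.1 CPM in Rec, 1113 ± 121 in clone1, 855 ± 55.5 in clone19 and 689 ± 30.5 in Fh1_fl_fl, and Rec differed from Fh1_fl_fl by 0.00 (adjusted p = 0.971, SE 0.065). Pdia6, which also limits IRE1 and PERK signalling, had its highest mean in Rec, with 351 ± 14.5 CPM in Rec, 242 ± 26.7 in clone1, 276 ± 8.39 in clone19 and 172 ± 13.4 in Fh1_fl_fl. Rec was higher for Pdia6 than clone1 by 0.54 (adjusted p = 2.95e-08, SE 0.066) and than clone19 by 0.35 (adjusted p = 3.56e-05, SE 0.066). Pdia3, the isomerase that works with the lectin chaperones, was called in 0 of 6 comparisons and averaged 785 ± 47.8 CPM in Rec, 874 ± 103 in clone1, 872 ± 66.2 in clone19 and 805 ± 46.9 in Fh1_fl_fl. In Rec against clone1 its difference was -0.15 (adjusted p = 0.0513, SE 0.071), with an adjusted p of 0.0138 to 0.14 over the alternatives.

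Calnexin and calreticulin, lectins that hold newly glycosylated proteins, differed from each other. Canx, the membrane-bound lectin, averaged 879.9 ± 51.6 CPM in Rec, 1065 ± 139 in clone1, 1022 ± 29.8 in clone19 and 761 ± 51.6 in Fh1_fl_fl and was called higher than Fh1_fl_fl in all 3 groups. Its call in Rec (adjusted p = 0.00987, SE 0.07) was lost when libraries were scaled to their totals, and its adjusted p was 0.0012 to 0.354 over the alternatives. Calr, the soluble lectin, averaged 1477 ± 74.3 CPM in Rec, 1132 ± 131 in clone1, 1485 ± 58.9 in clone19 and 1338 ± 61.6 in Fh1_fl_fl. Clone1 was lower for Calr, with a difference of -0.24 (adjusted p = 0.0016, SE 0.065) from Fh1_fl_fl and of -0.39 (adjusted p = 8.87e-06, SE 0.065) from clone19. Clone19 was called higher than Fh1_fl_fl by 0.15 (adjusted p = 0.0402, SE 0.065), and this call was lost under library-total scaling, without the count filter, and without Fh1_fl_fl replicate 4 or 5 or clone19 replicate 1 or 2, at an adjusted p of 0.0125 to 0.749 over the alternatives.

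The J-domain cochaperones of BiP, which hand it clients, also split by gene. Dnajc10, an ER reductase that opens wrong disulfides, averaged 146 ± 4.21 CPM in Rec, 266 ± 26.3 in clone1, 238 ± 10.9 in clone19 and 160.3 ± 10.5 in Fh1_fl_fl. Dnajb9, which delivers misfolded proteins to degradation and restrains IRE1, averaged 13.5 ± 1.78 CPM in Rec, 29.7 ± 4.35 in clone1, 30.7 ± 5.51 in clone19 and 19.6 ± 3.001 in Fh1_fl_fl. Dnajb9 was lower in Rec than in all other groups, with differences of -1.14 (adjusted p = 5.62e-09, SE 0.13) from clone1, -1.18 (adjusted p = 4.81e-09, SE 0.13) from clone19 and -0.54 (adjusted p = 4.81e-04, SE 0.13) from Fh1_fl_fl. Sdf2l1, a partner of ER J proteins, averaged 7.08 ± 1.55 CPM in Rec, 11.9 ± 1.39 in clone1, 15 ± 0.828 in clone19 and 9.95 ± 1.51 in Fh1_fl_fl. Dnajb11, another J protein, averaged 47.2 ± 3.56 CPM in Rec, 38.9 ± 4.56 in clone1, 46.1 ± 1.16 in clone19 and 47.6 ± 3.19 in Fh1_fl_fl and differed in clone1 from Fh1_fl_fl by -0.29 (adjusted p = 9.97e-04, SE 0.074). Dnajc3, which also inhibits PERK, averaged 49.8 ± 3.36 CPM in Rec, 59.9 ± 5.74 in clone1, 56.7 ± 3.42 in clone19 and 49.1 ± 4.41 in Fh1_fl_fl. The stress-induced ER proteins Manf and Creld2 separated the groups differently again. Manf averaged 111 ± 12.7 CPM in Rec, 109.6 ± 12.5 in clone1, 178 ± 18.5 in clone19 and 91.1 ± 2.33 in Fh1_fl_fl, and clone1 differed from clone19 by -0.70 (adjusted p = 2.17e-08, SE 0.08). Creld2 averaged 47.9 ± 4.34 CPM in Rec, 32.3 ± 4.51 in clone1, 36.4 ± 2.76 in clone19 and 31.4 ± 2.81 in Fh1_fl_fl, and Rec was higher than Fh1_fl_fl by 0.61 (adjusted p = 5.29e-07, SE 0.085). Scaled to library totals, Dnajc3 lost its calls in both clones, Sdf2l1 its call in clone1, Creld2 its call in clone19, and Manf its calls in clone1 and Rec.

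In all, 10 of 18 ER folding genes were called higher and 3 lower (Dnajb9, Dnajc10 and Sdf2l1) in Rec than in Fh1_fl_fl, with a median log2 fold change of 0.24. The Dnajc10 call was lost in 15 of the 20 fits without 1 library and with DESeq2, at an adjusted p of 3.53e-04 to 0.192 over the alternatives. In clone1 14 were higher and 2 lower (Calr and Dnajb11), with a median of 0.54. In clone19 16 were higher, with a median of 0.59, and edgeR called 0 lower, also at an unadjusted p under 0.05. DESeq2 called 0 lower there as well, while Dnajb11 was called lower under library-total scaling. The shares over all tested genes were 33.4% higher and 37.4% lower in Rec, 38% and 40.5% in clone1, and 36.8% and 36.1% in clone19.

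The UPR sensor and factor genes were called higher in clone1 in 4 of 4 cases and in clone19 in 3 of 4, with 1 higher (Ern1) and 1 lower (Xbp1) in Rec. Beside this, 38% of all tested genes were called higher in clone1, 36.8% in clone19 and 33.4% in Rec, where 37.4% were lower. Atf6 (ENSMUSG00000026663, chromosome 1, 170704674 to 170867771, minus strand), a membrane-bound transcription factor released by cleavage, had 105, 80, 91, 99 and 91.6 CPM in Rec, 215, 249, 249.8, 274 and 318 in clone1, 220.1, 197, 187, 192 and 217 in clone19, and 99.8, 99.6, 91, 86.6 and 95.3 in Fh1_fl_fl. The clone libraries lay above all others, and Rec overlapped Fh1_fl_fl. Relative to Fh1_fl_fl, Atf6 differed by -0.02 (adjusted p = 0.862, SE 0.084) in Rec and was higher by 1.47 (adjusted p = 7.71e-15, SE 0.084) in clone1 and 1.102 (adjusted p = 5.43e-12, SE 0.084) in clone19. Its paralog Atf6b averaged 61.7 ± 2.15 CPM in Rec, 76.9 ± 6.44 in clone1, 74.9 ± 9.57 in clone19 and 56.9 ± 9.08 in Fh1_fl_fl and was called higher in both clones.

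Ern1 (ENSMUSG00000020715, chromosome 11, 106394650 to 106487852, minus strand), which encodes the kinase and endoribonuclease IRE1, had 25.1, 18.5, 19.5, 24.5 and 23.9 CPM in Rec, 36.8, 42.7, 40.1, 42 and 51.2 in clone1, 44.6, 44.2, 52.7, 41.6 and 50.3 in clone19, and 19.7, 15.6, 15.6, 14 and 17.5 in Fh1_fl_fl. The clones overlapped each other and lay above the other groups, which also overlapped. Relative to Fh1_fl_fl, Ern1 was higher by 0.43 (adjusted p = 0.00103, SE 0.11) in Rec, 1.36 (adjusted p = 3.97e-12, SE 0.1) in clone1 and 1.49 (adjusted p = 1.17e-12, SE 0.11) in clone19. Xbp1 (ENSMUSG00000020484, chromosome 11, 5520659 to 5525893, plus strand), whose transcript IRE1 splices into the form that encodes the active factor, separated the clones. It had 66.1, 60.4, 55.5, 59.2 and 61.1 CPM in Rec, 171, 139, 134, 139 and 161 in clone1, 70.8, 77.1, 70.4, 66.7 and 63.7 in clone19, and 70.3, 65.6, 69, 66.4 and 69.2 in Fh1_fl_fl. All clone1 libraries lay above all others, while clone19 overlapped Fh1_fl_fl. Clone1 was higher for Xbp1 than Fh1_fl_fl by 1.13 (adjusted p = 2.49e-14, SE 0.068) and than clone19 by 1.097 (adjusted p = 2.23e-13, SE 0.07), and clone19 differed from Fh1_fl_fl by 0.03 (adjusted p = 0.691, SE 0.07). The call of Xbp1 as lower in Rec than in Fh1_fl_fl, -0.17 (adjusted p = 0.0288, SE 0.069), was lost in 8 of the 20 fits without 1 library, at an adjusted p of 3.21e-04 to 0.0905 over the alternatives. Gene counts do not tell the spliced from the unspliced transcript.

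Genes of ER-associated degradation, which returns misfolded proteins to the cytosol and the proteasome, were called higher than Fh1_fl_fl in 3 of 7 tested cases in Rec, 5 in clone1 and 6 in clone19, with medians of 0.10, 0.42 and 0.41. All tested genes had 33.4% called higher and 37.4% lower in Rec, 38% and 40.5% in clone1, and 36.8% and 36.1% in clone19. By edgeR 0 of these 7 genes were lower in any of the 3 groups, also at an unadjusted p under 0.05, and DESeq2 called 0 lower. Scaled to library totals, Derl2 was called lower in Rec and clone19 and Edem2 lower in Rec. Derl2 was also called lower in clone19 without clone19 replicate 2, and Edem2 lower in Rec without Fh1_fl_fl replicate 4. Edem1 (ENSMUSG00000030104, chromosome 6, 108828641 to 108859356, plus strand), which takes misfolded glycoproteins out of the folding cycle, had 64.1, 55.7, 63.5, 70.9 and 64.7 CPM in Rec, 134, 113, 105, 113 and 144 in clone1, 111, 101, 90.1, 96.7 and 104 in clone19, and 54.1, 49.9, 43.9, 42.4 and 46.1 in Fh1_fl_fl. Rec lay above Fh1_fl_fl and below the clones with no overlap. Relative to Fh1_fl_fl, Edem1 was higher by 0.43 (adjusted p = 8.13e-05, SE 0.086) in Rec, 1.37 (adjusted p = 5.24e-14, SE 0.086) in clone1 and 1.09 (adjusted p = 1.19e-11, SE 0.086) in clone19. Herpud1 (ENSMUSG00000031770, chromosome 8, 94386438 to 94395377, plus strand), a membrane protein that organises the degradation complex, had 89.5, 89.8, 92.6, 88.7 and 93.3 CPM in Rec, 123, 100.5, 92.1, 105 and 124 in clone1, 75.2, 68, 75.1, 66.9 and 71 in clone19, and 53.1, 60.1, 49.7, 48.3 and 53.3 in Fh1_fl_fl. All 3 groups lay above Fh1_fl_fl, and clone19 lay below Rec and clone1. Clone1 was higher for Herpud1 than clone19 by 0.62 (adjusted p = 6.07e-08, SE 0.075).

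Sel1l, the scaffold of the ubiquitin ligase complex, averaged 62.7 ± 6.74 CPM in Rec, 78.1 ± 15.3 in clone1, 93.8 ± 8.67 in clone19 and 58.4 ± 6.11 in Fh1_fl_fl and was called higher in both clones. Syvn1, the ligase itself, averaged 47.8 ± 3.81 CPM in Rec, 47.2 ± 5.02 in clone1, 56.7 ± 7.03 in clone19 and 47.8 ± 4.56 in Fh1_fl_fl. The call of Syvn1 as higher in clone19 (adjusted p = 0.0175, SE 0.088) was lost under library-total scaling and without Fh1_fl_fl replicate 4 or clone19 replicate 3, at an adjusted p of 0.00159 to 0.243 over the alternatives. Derl1, a derlin of the retrotranslocation channel, was called higher in all 3 groups and averaged 146 ± 5.59 CPM in Rec, 136 ± 9.74 in clone1, 130.1 ± 6.3 in clone19 and 101 ± 9.48 in Fh1_fl_fl. Derl2 was called in 0 of 6 comparisons and averaged 51.7 ± 2.14 CPM in Rec, 52.6 ± 2.16 in clone1, 48.9 ± 4.62 in clone19 and 52.7 ± 2.89 in Fh1_fl_fl. Edem2, a mannosidase of the same family as Edem1, averaged 35.3 ± 2.24 CPM in Rec, 46.5 ± 5.62 in clone1, 51.9 ± 4.38 in clone19 and 39 ± 3.8 in Fh1_fl_fl.

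The Sec61 subunits, which form the channel through which chains enter the ER, went in opposite directions in clone1. Sec61a1 (ENSMUSG00000030082, chromosome 6, 88503579 to 88518905, minus strand) had 237, 215, 207, 214 and 221 CPM in Rec, 309, 291, 256, 293 and 349.8 in clone1, 197, 167, 191, 189 and 213 in clone19, and 225, 221, 191, 168 and 214 in Fh1_fl_fl. Sec61b (ENSMUSG00000053317, chromosome 4, 47474658 to 47483242, plus strand) had 29, 40.5, 38.5, 38.5 and 33.6 CPM in Rec, 21, 18.7, 17.2, 16.3 and 18 in clone1, 20.4, 27.9, 25.9, 28 and 22.4 in clone19, and 25.5, 31.6, 34.4, 30 and 28.2 in Fh1_fl_fl. Clone1 lay above all other libraries for Sec61a1, and below all Rec and Fh1_fl_fl libraries for Sec61b. Relative to Fh1_fl_fl, clone1 differed by 0.56 (adjusted p = 5.65e-07, SE 0.081) for Sec61a1 and by -0.70 (adjusted p = 9.22e-07, SE 0.1) for Sec61b. Sec61b also differed by -0.25 (adjusted p = 0.0315, SE 0.1) in clone19 and 0.27 (adjusted p = 0.0154, SE 0.097) in Rec, both with overlap. Sec61a1 was called in neither.

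Of the 12 cytosolic chaperone members, most were lower in the clones and most higher in Rec. Of these, 7 were higher and 3 lower (Bag3, Hspa1a and Hspa1b) in Rec than in Fh1_fl_fl, with a median log2 fold change of 0.29. In clone1 1 was higher (Hspa4) and 7 were lower, with a median of -0.70. In clone19 2 were higher (Hsp90aa1 and Hspb8) and 8 lower, with a median of -0.34. Hspa1a passed the count filter only through Fh1_fl_fl and Hspb8 only through clone19. Their calls against those groups were thus nearly given, though they are kept in the counts. The count of 1 higher in clone1 became 2, with Bag3 added, under relative-log-expression scaling, with DESeq2, with only the 2 groups compared, and without Rec replicate 2, 4 or 5, clone1 replicate 1, clone19 replicate 1 or 3, or Fh1_fl_fl replicate 1 or 3. Over all tested genes, 33.4% were called higher and 37.4% lower in Rec, 38% and 40.5% in clone1, and 36.8% and 36.1% in clone19. Being called in either direction was thus common for any gene. Cytosolic folding genes outside the members had medians near or above 0 in the clones. Of 25 tested further cytosolic chaperones and cochaperones, 17 were higher and 5 lower in Rec, 13 and 7 in clone1, and 7 and 8 in clone19, with medians of 0.29, 0.17 and -0.02. Of 8 genes of the TRiC chaperonin, a cytosolic ring that folds actin and tubulin, 8 were higher and 0 lower in Rec, 5 and 2 in clone1, and 4 and 1 in clone19, with medians of 0.76, 0.43 and 0.14.

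Hspa8 (ENSMUSG00000015656, chromosome 9, 40800984 to 40810087, plus strand) encodes Hsc70, the constitutive Hsp70 of the cytosol. It had 1839, 1934, 1859, 1852 and 1849 CPM in Rec, 831, 824, 818, 835 and 855 in clone1, 1052, 1148, 1085, 1072 and 1012 in clone19, and 1312, 1332, 1365, 1409 and 1351 in Fh1_fl_fl. The 4 groups did not overlap, with clone1 lowest, then clone19, Fh1_fl_fl and Rec. Relative to Fh1_fl_fl, Hspa8 was higher by 0.46 (adjusted p = 1.90e-09, SE 0.047) in Rec, and differed by -0.70 (adjusted p = 2.86e-13, SE 0.048) in clone1 and -0.33 (adjusted p = 5.46e-07, SE 0.047) in clone19. Hsph1, an Hsp110 that exchanges nucleotide on Hsp70, averaged 676 ± 29.6 CPM in Rec, 255 ± 15.9 in clone1, 377 ± 18.3 in clone19 and 652 ± 45.4 in Fh1_fl_fl. Its difference from Fh1_fl_fl was -1.35 (adjusted p = 1.49e-17, SE 0.058) in clone1 and -0.79 (adjusted p = 1.93e-12, SE 0.057) in clone19. Hspa4, of the same Hsp110 family, averaged 790.2 ± 28.6 CPM in Rec, 662 ± 33.6 in clone1, 501 ± 26.3 in clone19 and 479 ± 15.9 in Fh1_fl_fl, and clone1 was higher than Fh1_fl_fl by 0.47 (adjusted p = 4.26e-09, SE 0.051).

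The cytosolic Hsp90 genes differed from each other. Hsp90ab1 (ENSMUSG00000023944, chromosome 17, 45567775 to 45573271, minus strand), the constitutive form, had 7756, 7945, 7642, 7665 and 7840 CPM in Rec, 5058, 4956, 4874, 4998 and 5108 in clone1, 5193, 4890, 5020, 5162 and 4937 in clone19, and 5283, 5562, 5433, 5442 and 5200 in Fh1_fl_fl. Rec lay above all others, and both clones lay just below Fh1_fl_fl without overlap. Rec was higher than Fh1_fl_fl by 0.53 (adjusted p = 4.49e-10, SE 0.05). The differences of -0.11 (adjusted p = 0.0526, SE 0.05) in clone1 and -0.10 (adjusted p = 0.0884, SE 0.05) in clone19 were not called. DESeq2 and library-total scaling called both lower, as did the fit without clone19 replicate 2 for clone1, at an adjusted p of 3.21e-04 to 0.332 in clone1 and 0.00123 to 0.202 in clone19 over the alternatives. Hsp90aa1, the heat-inducible form, averaged 1461 ± 71.2 CPM in Rec, 527 ± 30.3 in clone1, 923 ± 37.8 in clone19 and 689 ± 30.7 in Fh1_fl_fl. Relative to Fh1_fl_fl it differed by -0.39 (adjusted p = 3.25e-07, SE 0.054) in clone1 and 0.42 (adjusted p = 9.75e-08, SE 0.054) in clone19, and clone1 differed from clone19 by -0.81 (adjusted p = 6.91e-13, SE 0.054).

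The inducible Hsp70 genes had their highest levels in Fh1_fl_fl. Hspa1b (ENSMUSG00000090877, chromosome 17, 34956436 to 34959238, minus strand) had 12.3, 19.5, 14.6, 16.5 and 14.4 CPM in Rec, 9.76, 8.33, 6.16, 7.48 and 10.2 in clone1, 4.65, 5.18, 4.2, 5.51 and 4.81 in clone19, and 40, 37.1, 37.8, 42 and 41.4 in Fh1_fl_fl. The 4 groups did not overlap. Relative to Fh1_fl_fl, Hspa1b differed by -1.37 (adjusted p = 5.11e-12, SE 0.1) in Rec, -2.23 (adjusted p = 6.74e-16, SE 0.11) in clone1 and -3.00 (adjusted p = 2.46e-17, SE 0.13) in clone19. Hspa1a (ENSMUSG00000091971, chromosome 17, 34969190 to 34972156, minus strand), its near-identical neighbour, rested on 8 counts over the 5 Rec libraries, 8 in clone1, 11 in clone19 and 154 in Fh1_fl_fl. It had 0.0935, 0.393, 0.164, 0 and 0.0579 CPM in Rec, 0.199, 0.387, 0.11, 0.153 and 0 in clone1, 0.664, 0.346, 0.175, 0.295 and 0 in clone19, and 2.89, 1.97, 2.19, 1.79 and 1.73 in Fh1_fl_fl. The Fh1_fl_fl libraries lay above all others. Hspa1a passed the count filter only through Fh1_fl_fl, so its height there was nearly given. How the Hsp70 signal divides between Hspa1a and Hspa1b is uncertain, since their sequences are largely shared.

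The small heat shock protein genes did not move together. Hspb1, which encodes Hsp25 and keeps unfolded proteins soluble, averaged 98.5 ± 11.7 CPM in Rec, 43.4 ± 6.46 in clone1, 27.5 ± 2.51 in clone19 and 74.8 ± 3.95 in Fh1_fl_fl. Relative to Fh1_fl_fl it was higher by 0.40 (adjusted p = 1.42e-04, SE 0.083) in Rec and differed by -0.78 (adjusted p = 6.08e-09, SE 0.087) in clone1 and -1.45 (adjusted p = 1.32e-13, SE 0.092) in clone19. Hspb8 (ENSMUSG00000041548, chromosome 5, 116408491 to 116422864, minus strand), which acts with Bag3 in chaperone-assisted autophagy, had 0.374, 0.295, 0.164, 0.235 and 0.116 CPM in Rec, 0, 0, 0.22, 0.153 and 0.26 in clone1, 7.47, 6.68, 4.55, 6.3 and 6.14 in clone19, and 0.392, 0.312, 0.162, 0.287 and 0.216 in Fh1_fl_fl. All clone19 libraries lay above all others, on 13 counts in Rec, 6 in clone1, 253 in clone19 and 20 in Fh1_fl_fl. Clone19 was higher than Fh1_fl_fl by 4.41 (SE 0.27), and clone1 differed from clone19 by -5.51 (SE 0.34). Hspb8 passed the count filter only through clone19, so its height there was nearly given and no p-value is set on it. Bag3 itself averaged 30 ± 2.48 CPM in Rec, 40.3 ± 1.75 in clone1, 29.3 ± 2.09 in clone19 and 37 ± 1.05 in Fh1_fl_fl. Dnaja1, a J protein of cytosolic Hsp70, averaged 183 ± 8.75 CPM in Rec, 96.4 ± 8.32 in clone1, 97.6 ± 12.1 in clone19 and 157 ± 11.5 in Fh1_fl_fl, and differed from Fh1_fl_fl by -0.70 (adjusted p = 2.05e-09, SE 0.074) in clone1 and -0.69 (adjusted p = 4.87e-09, SE 0.074) in clone19. Its call as higher in Rec (adjusted p = 0.0083, SE 0.072) was lost under library-total scaling, at an adjusted p of 8.02e-04 to 0.278 over the alternatives. Dnajb1, another such J protein, averaged 81.4 ± 5.53 CPM in Rec, 63.3 ± 7.08 in clone1, 54 ± 4.31 in clone19 and 63.5 ± 2.77 in Fh1_fl_fl.

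Hsf1 (ENSMUSG00000022556, chromosome 15, 76477422 to 76501913, plus strand), the transcription factor gene of the heat shock response, had 63.9, 64.2, 59.1, 57 and 60.7 CPM in Rec, 49.6, 48.3, 43.6, 47 and 42.9 in clone1, 37.2, 33.3, 35.7, 38 and 43.4 in clone19, and 44.5, 43.9, 42.6, 43.4 and 48.6 in Fh1_fl_fl. Rec lay above all others, and each clone overlapped Fh1_fl_fl. Relative to Fh1_fl_fl, Hsf1 was higher by 0.45 (adjusted p = 1.09e-06, SE 0.066) in Rec, and differed by 0.05 (adjusted p = 0.495, SE 0.068) in clone1 and -0.25 (adjusted p = 0.00259, SE 0.07) in clone19.

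HSF1 binds inverted repeats of GAA. The 3-unit form, GAA, TTC and GAA each 2 bases apart, occurred on either strand before 0 of 9 matched cytosolic chaperone genes and before 2 of 2 matched mitochondrial ones, Hspd1 and Hspe1, which share a divergent promoter, against 0.5143% of all genes. The 2-unit forms GAANNTTC and TTCNNGAA overlap the longer one and were added to the search after it. Either occurred before 5 of 9 cytosolic genes (Dnaja1, Hspa1a, Hspa1b, Hspb1 and Hsph1), 2 of 2 mitochondrial genes and 1 of 15 ER folding genes (Dnajc10), against 14.55% of all genes. Stretches of Hsph1 and Hspb1 are shown as cytosolic members called lower in both clones, and that of Hspd1 as a member called higher in Rec and both clones. They are Hsph1 at chr5:149636337-149636409 (minus strand, from -73 to -1), Hspb1 at chr5:135887762-135887869 (plus strand, from -157 to -50) and Hspd1 at chr1:55088019-55088116 (minus strand, from -184 to -87), written as above with the repeats in capitals.
Hsph1: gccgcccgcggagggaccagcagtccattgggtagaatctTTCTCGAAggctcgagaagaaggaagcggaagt
Hspb1: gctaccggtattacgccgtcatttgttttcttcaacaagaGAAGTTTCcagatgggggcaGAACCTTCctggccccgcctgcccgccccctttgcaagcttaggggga
Hspd1: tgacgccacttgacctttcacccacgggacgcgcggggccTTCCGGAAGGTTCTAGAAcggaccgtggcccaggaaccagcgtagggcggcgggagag

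The mitochondrial chaperones were called higher than Fh1_fl_fl in 3 of 3 cases in Rec, clone1 and clone19. For comparison, 33.4%, 38% and 36.8% of all tested genes were called higher in these groups. Hspa9 (ENSMUSG00000024359, chromosome 18, 34937414 to 34954357, minus strand), the mitochondrial Hsp70 that pulls imported proteins into the matrix, had 1662, 1639, 1510, 1623 and 1706 CPM in Rec, 2649, 2645, 2714, 2681 and 2849 in clone1, 2431, 2476, 2276, 2354 and 2380 in clone19, and 756, 798, 740.4, 779 and 702 in Fh1_fl_fl. The 4 groups did not overlap. Relative to Fh1_fl_fl, Hspa9 was higher by 1.11 (adjusted p = 3.67e-16, SE 0.053) in Rec, 1.84 (adjusted p = 3.35e-21, SE 0.054) in clone1 and 1.66 (adjusted p = 6.84e-20, SE 0.053) in clone19. Hspd1 (ENSMUSG00000025980, chromosome 1, 55077835 to 55088243, minus strand) encodes Hsp60, the barrel-shaped chaperonin of the matrix. It had 1052, 1080, 925, 985 and 1045 CPM in Rec, 835, 799, 796, 770.1 and 875 in clone1, 968, 988, 877, 958 and 981 in clone19, and 359.6, 386, 345, 394 and 335 in Fh1_fl_fl. All 3 groups lay above Fh1_fl_fl, and Rec overlapped clone19. Relative to Fh1_fl_fl, Hspd1 was higher by 1.48 (adjusted p = 1.09e-17, SE 0.059) in Rec, 1.16 (adjusted p = 5.63e-16, SE 0.059) in clone1 and 1.39 (adjusted p = 2.64e-17, SE 0.059) in clone19. Hspe1, the lid of that chaperonin, averaged 327 ± 42.7 CPM in Rec, 191 ± 12.6 in clone1, 241 ± 44.1 in clone19 and 146 ± 17.9 in Fh1_fl_fl. Hspd1 and Hspe1 thus had their highest means in Rec and Hspa9 in clone1. The class median was 1.17 in Rec, 1.16 in clone1 and 1.39 in clone19.

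For the contrast between compartments, which rests on the 18 ER folding and 12 cytosolic members and not on the further lists, the log2 level of each member in a library was set against its Fh1_fl_fl mean, and the median was taken within a class. The ER folding median was 0.22 ± 0.05 in Rec, 0.56 ± 0.18 in clone1, 0.57 ± 0.061 in clone19 and 0.00 ± 0.078 in Fh1_fl_fl (SD, n = 5 each). The cytosolic median was 0.28 ± 0.049 in Rec, -0.57 ± 0.098 in clone1, -0.35 ± 0.043 in clone19 and 0.00 ± 0.043 in Fh1_fl_fl. The ER minus the cytosolic median was -0.12 to 0.00 in the Rec libraries, 0.91 to 1.27 in clone1, 0.85 to 1.04 in clone19, and -0.15 to 0.11 in Fh1_fl_fl. The clone libraries were separate from the others, and Rec overlapped Fh1_fl_fl. Summed over genes, the ER folding class held 7527 ± 284 CPM in Rec, 9349 ± 1074 in clone1, 9437 ± 339.7 in clone19 and 5990 ± 348 in Fh1_fl_fl. The cytosolic class held 12972 ± 265 CPM in Rec, 7527 ± 171 in clone1, 8134 ± 158 in clone19 and 8932 ± 208 in Fh1_fl_fl. Mean sums of both classes were thus higher in Rec than in Fh1_fl_fl, while in the clones the ER sum was higher and the cytosolic sum lower. Much of the cytosolic sum was Hsp90ab1 alone, at 7770 CPM in Rec, 4999 in clone1, 5040 in clone19 and 5384 in Fh1_fl_fl.

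**Figure D3:**
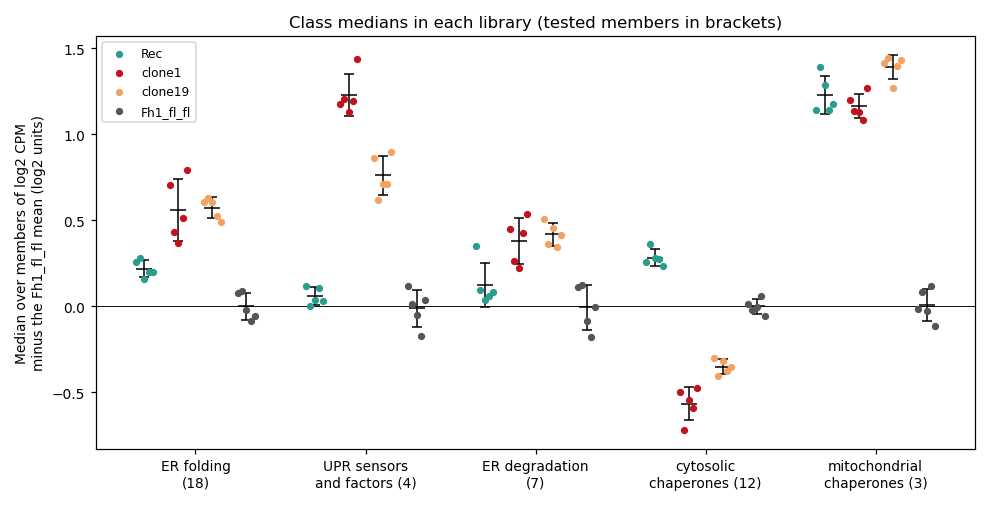
Median over the tested members of a class of log2 CPM minus the Fh1_fl_fl mean (y axis, log2 units) in each library (points), with group mean and SD (black). The clones lie above 0 for ER folding genes and below 0 for cytosolic chaperones, Rec lies above 0 for both, and mitochondrial chaperones average 1.23 ± 0.11 in Rec, 1.16 ± 0.071 in clone1 and 1.39 ± 0.069 in clone19.

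Paralogs that do like work in different compartments were also compared as ratios of CPM per kilobase of exon. Hspa5 to Hspa8, the Hsp70 of the ER to that of the cytosol, stood at 0.635 ± 0.019 in Rec, 2.85 ± 0.36 in clone1, 2.14 ± 0.04 in clone19 and 0.587 ± 0.05 in Fh1_fl_fl. Hyou1 to Hsph1 stood at 0.281 ± 0.019 in Rec, 1.15 ± 0.12 in clone1, 1.13 ± 0.074 in clone19 and 0.231 ± 0.041 in Fh1_fl_fl. Hsp90b1 to Hsp90ab1 stood at 0.1248 ± 0.006 in Rec, 0.195 ± 0.015 in clone1, 0.188 ± 0.012 in clone19 and 0.0985 ± 0.0081 in Fh1_fl_fl. The clones lay above Rec and Fh1_fl_fl without overlap in these ratios. The same held for Hspa9 to Hspa8, mitochondria to cytosol, at 0.871 ± 0.044 in Rec, 3.24 ± 0.068 in clone1, 2.22 ± 0.11 in clone19 and 0.557 ± 0.031 in Fh1_fl_fl. Dnajb11 to Dnaja1 stood at 0.686 ± 0.025 in Rec, 1.08 ± 0.13 in clone1, 1.27 ± 0.14 in clone19 and 0.812 ± 0.094 in Fh1_fl_fl, with clone1 overlapping Fh1_fl_fl. Sequence that Hspa8, Dnaja1 and other members share with copies limits the size of these ratios as levels.

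**Figure D4:**
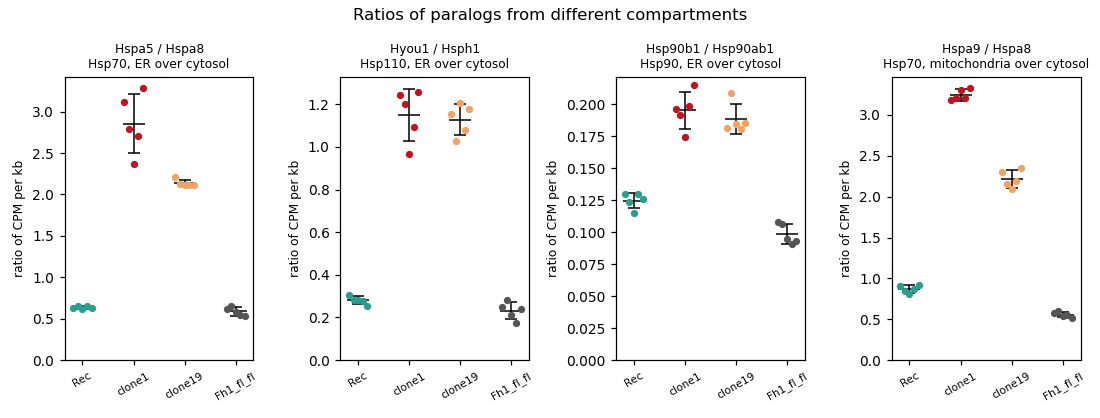
Ratio of CPM per kb of exon between paralogs of different compartments (y axis, linear from 0) in each library (points), with group mean and SD (black). In all 4 panels the clone1 and clone19 libraries lie above those of Rec and Fh1_fl_fl.

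Rec was also set directly against each clone. Against clone1, 17 members were higher and 22 lower in Rec, beside 77.9% of all tested genes, 39.7% higher and 38.1% lower. Against clone19, 17 were higher and 21 lower in Rec, beside 73.8% of all tested genes, 35.8% higher and 38% lower. These comparisons share the Rec libraries. The member median was -0.15 against clone1 and -0.15 against clone19, and that of all tested genes 0.01 and -0.02. Of 18 ER folding genes, 4 were higher (Calr, Creld2, Dnajb11 and Pdia6) and 11 lower in Rec than in clone1, with a median of -0.35, and 2 were higher (Creld2 and Pdia6) and 11 lower than in clone19, with a median of -0.26. Of the UPR sensor and factor genes, 4 of 4 were lower in Rec than in clone1 and 4 of 4 than in clone19, with medians of -1.12 and -0.67. The Xbp1 call against clone19, -0.20 (adjusted p = 0.0117, SE 0.071), was lost without the count filter, at an adjusted p of 0.00622 to 0.0556 over the alternatives. Of 12 cytosolic chaperones, 9 were higher and 1 lower (Bag3) in Rec than in clone1, with a median of 0.81. Against clone19, 9 were higher and 1 lower (Hspb8, which passed the count filter only through clone19) in Rec, with a median of 0.66. Hsp90aa1 was higher in Rec by 1.47 (adjusted p = 7.47e-19, SE 0.055) against clone1 and 0.66 (adjusted p = 1.92e-11, SE 0.054) against clone19. Hspa9 differed by -0.73 (adjusted p = 7.88e-13, SE 0.052) against clone1 and -0.55 (adjusted p = 3.93e-10, SE 0.052) against clone19, and Hspe1 by 0.78 (adjusted p = 1.38e-07, SE 0.1) and 0.44 (adjusted p = 4.08e-04, SE 0.1).

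**Figure D5:**
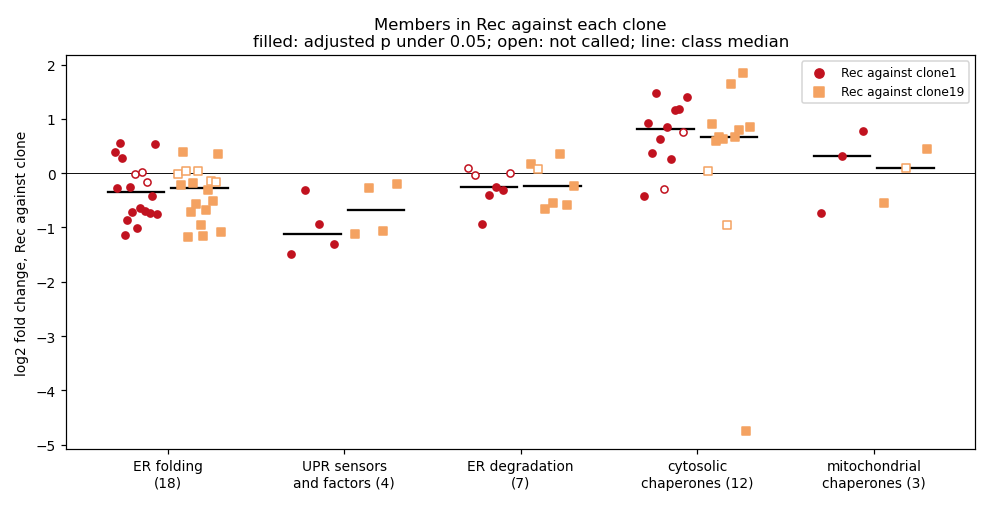
Log2 fold change of Rec against clone1 and of Rec against clone19 for the tested members by class, with black lines at the class medians. The ER folding medians lie at -0.35 and -0.26, and the cytosolic medians at 0.81 and 0.66.

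The clones were compared with each other, since each is 1 clone. Clone1 had 16 members higher and 15 lower than clone19, beside 65.1% of all tested genes, 31.6% higher and 33.5% lower, with a median of 0.04 over members and -0.02 over all tested genes. Among ER folding genes 4 were higher and 6 lower in clone1, and without clone19 replicate 4 the higher ones numbered 2. P4hb was higher in clone1 by 0.38 (adjusted p = 1.27e-05, SE 0.065). Among cytosolic chaperones 5 were higher (Bag3, Dnajb1, Hspa1b, Hspa4 and Hspb1) and 4 lower (Hsp90aa1, Hspa8, Hspb8 and Hsph1) in clone1. Of these, Hspb8 passed the count filter only through clone19. Hsf1 was higher in clone1 by 0.30 (adjusted p = 6.42e-04, SE 0.071) and Sec61a1 by 0.65 (adjusted p = 1.10e-07, SE 0.081).

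Other genes of these pathways were counted from lists chosen by function. Among all tested genes, 33.4% were called higher and 37.4% lower in Rec, 38% and 40.5% in clone1, and 36.8% and 36.1% in clone19. The list counts were not tested against these shares. Of 23 tested further ER folding and glycosylation genes, 14 were higher and 3 lower in Rec, 12 and 6 in clone1, and 15 and 4 in clone19, with medians of 0.20, 0.27 and 0.32. Ero1l, the other ER oxidase and a hypoxia-inducible gene, averaged 95 ± 6.88 CPM in Rec, 892 ± 85.8 in clone1, 787 ± 62.7 in clone19 and 54.1 ± 3.49 in Fh1_fl_fl, and was higher than Fh1_fl_fl by 0.81 (adjusted p = 1.35e-10, SE 0.072) in Rec, 4.04 (adjusted p = 8.65e-25, SE 0.078) in clone1 and 3.86 (adjusted p = 4.75e-24, SE 0.077) in clone19. Cnpy2, an ER-resident protein, averaged 63.7 ± 5.89 CPM in Rec, 21.4 ± 4.35 in clone1, 37 ± 4.84 in clone19 and 78.4 ± 4.24 in Fh1_fl_fl. Of 19 tested further translocon, signal peptidase and signal recognition particle genes, 9 were higher and 3 lower in Rec, 10 and 4 in clone1, and 8 and 2 in clone19. Sec61a2, a paralog of the channel subunit, averaged 43.6 ± 1.72 CPM in Rec, 77.4 ± 4.37 in clone1, 68.7 ± 4.49 in clone19 and 33.8 ± 1.58 in Fh1_fl_fl, and Srprb, a subunit of the signal recognition particle receptor, 37.1 ± 3.31 CPM in Rec, 34.5 ± 5.93 in clone1, 47.6 ± 5.58 in clone19 and 26 ± 3.2 in Fh1_fl_fl. Of 18 further ER degradation genes, 6 were higher and 5 lower in Rec, 6 and 8 in clone1, and 5 and 4 in clone19. Their medians were -0.04, -0.18 and -0.03, so this list did not show the rise of the member class. The ER ubiquitin ligase gene March6 averaged 173 ± 21.5 CPM in Rec, 299 ± 43.2 in clone1, 219 ± 19.4 in clone19 and 143 ± 14 in Fh1_fl_fl, and the lectin gene Erlec1 44.4 ± 3.07 CPM in Rec, 94.9 ± 9.36 in clone1, 55.9 ± 5.19 in clone19 and 50.3 ± 0.674 in Fh1_fl_fl. Of 10 genes of the PERK arm and the integrated stress response, which also answers to signals outside the ER, 8 were higher and 1 lower in Rec, 7 and 3 in clone1, and 8 and 2 in clone19. The transcription factor gene Ddit3 averaged 37.6 ± 3.77 CPM in Rec, 342 ± 23.1 in clone1, 206 ± 14.4 in clone19 and 13.7 ± 1.14 in Fh1_fl_fl, and the pseudokinase gene Trib3 73.7 ± 1.82 CPM in Rec, 201 ± 19.2 in clone1, 143 ± 5.93 in clone19 and 17.2 ± 3.98 in Fh1_fl_fl.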

How the data were processed

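The authors deposited 1 table of raw read counts per gene for each of the 20 libraries, and no normalization is visible in the values. Per the submitters' processing notes, the build was GRCm38 and the software included TopHat2 2.0.4, HTSeq 0.5.3p9 and DESeq 1.10.1, with annotation release and strand setting not given in the sources used here. Summary lines for reads with no unique alignment (28.8 to 40.3% of the reads tallied per library), no feature (3.28 to 6.73%) or ambiguous overlap (0.462 to 0.653%) were left out of library sizes. Symbols, exons and lengths came from GENCODE M21, and promoters from RefSeq on GRCm38.p6.

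Groups follow the labels. Low genes were removed with filterByExpr, which left 12671 of 39179 genes. A single edgeR 4.0.16 quasi-likelihood fit of all 20 libraries with TMM scaling (R 4.3.3, limma 3.58.1) gave 6 comparisons, with p-values adjusted by Benjamini-Hochberg over all tested genes and SE taken as the fold change over the root of F. The scripts were first tested on simulated data. Class levels used log2 of CPM plus 0.125, the limit for a count of 0 was 3 counts, and such limits cover counting error only. Alternatives were relative-log-expression (RLE) scaling, library totals, no count filter, DESeq2 1.42.0, only the groups compared, a replicate block and leaving out each library. Summaries and plots used Python 3.11.15, pandas 2.3.3 and matplotlib 3.10.9. Libraries of a group differed by more than sampling noise in all 40 pairs. Clone19 replicate 3 stood apart: chi-square per degree of freedom was 61.8 to 92.2 in its 4 pairs and 2.04 to 19.4 in the other 36.

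The members and lists were chosen with earlier results of these data known. All members could be named. Values in every library were given for 8 chosen members and for the 2 members of each class with the largest change against Fh1_fl_fl, and at most 2 genes were named in each further list. Of 199 listed genes 198 matched a counted symbol (Hspa14 did not).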

Additional observations from a re-analysis of the deposited data

Results flagged for a closer look

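In 15 of 188 groups of 5 libraries, 1 library of a member stood apart from the other 4, and chance gives about 5%. Hsp90b1 had 1184 CPM in Rec replicate 3, where the other Rec libraries had 1319 to 1354. Hsp90b1 had 1373 CPM in clone19 replicate 2, where the other clone19 libraries had 1233 to 1269. Sdf2l1 had 4.39 CPM in Rec replicate 1, where the other Rec libraries had 7.47 to 8.46. Manf had 133 CPM in Rec replicate 2, where the other Rec libraries had 102 to 110.1. Dnajb9 had 16.7 CPM in Rec replicate 3, where the other Rec libraries had 12.5 to 13.2. Dnajb9 had 24.7 CPM in Fh1_fl_fl replicate 4, where the other Fh1_fl_fl libraries had 17.2 to 19.4. Dnajc3 had 56.7 CPM in Fh1_fl_fl replicate 1, where the other Fh1_fl_fl libraries had 45.4 to 48.4. Dnajc10 had 153 CPM in Rec replicate 4, where the other Rec libraries had 143 to 145. Hspa4 had 720.4 CPM in clone1 replicate 5, where the other clone1 libraries had 641 to 660.2. Hspa8 had 1934 CPM in Rec replicate 2, where the other Rec libraries had 1839 to 1859. Dnaja1 had 119 CPM in clone19 replicate 2, where the other clone19 libraries had 88 to 96.6. Dnajb1 had 71.7 CPM in Rec replicate 1, where the other Rec libraries had 82.4 to 85.1. Dnajb1 had 75.6 CPM in clone1 replicate 1, where the other clone1 libraries had 57.4 to 61.8. Bag3 had 43.4 CPM in clone1 replicate 5, where the other clone1 libraries had 39.1 to 39.8. Hspd1 had 877 CPM in clone19 replicate 3, where the other clone19 libraries had 958 to 988. The cause of these gaps was not tested.

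Calr and Hsp90aa1 were called in opposite directions in the clones relative to Fh1_fl_fl. Both were picked by those calls in the same libraries, so a difference between the clones was nearly given and adds no separate support. The clone1 minus clone19 difference was -0.39 for Calr (adjusted p = 8.87e-06, SE 0.065) and -0.81 for Hsp90aa1 (adjusted p = 6.91e-13, SE 0.054) in edgeR's test. Libraries of the clones did not overlap for either gene. The Calr call in clone19 against Fh1_fl_fl was lost under 6 of the alternatives.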

How the results depend on the processing

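Over all 47 members, each count of calls stayed within 1.5 times its value under all alternatives run, and the ER minus cytosolic median kept its direction except between clone1 and clone19. Counts within a class were followed for ER folding and cytosolic members only, and moved further in 13 cases. Counts of the other classes were not followed, and calls of Derl2, Edem2 and Xbp1 that changed are given above. Cytosolic members higher in clone1 went to 2, against 1, under RLE, DESeq2, only the groups compared and 8 fits without 1 library. ER folding members lower in clone19 numbered 1, against 0, under library totals, and those higher in clone1 than clone19 numbered 2, against 4, without clone19 replicate 4. Without 1 library each, the ER minus cytosolic median log2 fold change was -0.08 to -0.02 in Rec, 1.19 to 1.29 in clone1 and 0.87 to 0.94 in clone19 relative to Fh1_fl_fl, and -1.25 to -1.09 in Rec against clone1 and -0.94 to -0.89 against clone19. Members called higher than Fh1_fl_fl numbered 26 to 27 in Rec, 27 to 30 in clone1 and 27 to 30 in clone19, and members called lower 5 to 8, 10 to 11 and 9 to 11. The difference between clone1 and clone19 in the ER minus cytosolic median, 0.04, ran over -0.02 to 0.08 and has no settled sign. Scaled to library totals, members higher numbered 22 in Rec, 24 in clone1 and 26 in clone19, and members lower 10, 11 and 14. Of 282 member fold changes, library totals ended 12 calls and added 9, DESeq2 ended 4 and added 5, RLE ended 1 and added 4, and fits without the count filter ended 7 and added 0. With only the groups compared, 1 call ended and 4 were added among 276 fold changes. Leaving out 1 library ended 87 calls and added 46 among 5640 fold changes. A called fold change changed sign in 0 cases. The cause of these changes was not tested.

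Replicate numbers did not pair the libraries. Same-numbered libraries had correlations of -0.26 to 0.22, of which 6 of 30 were over 0.1. With a replicate block, members higher than Fh1_fl_fl numbered 27 in Rec, 27 in clone1 and 30 in clone19, members lower 6, 10 and 10, and the ER minus cytosolic median was -0.05, 1.248 and 0.92. Of 30 pairs, 5 correlated best with their own number. Depth limits Hspa1a and Hspb8, which rest on 20 counts or fewer in all but 1 group. Each passed the count filter only through that group, so its calls against that group add no separate support. Shared sequence limits Hspa1a, Hspa1b, Hspb1, Hsp90aa1, Hspd1 and Hspa8 most, and also Hspe1 and Dnaja1.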

Other observations

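Named genes of the further lists are given here by their levels. Among TRiC chaperonin subunits, Cct8 averaged 1178 ± 52 CPM in Rec, 730.3 ± 47.1 in clone1, 652 ± 50.8 in clone19 and 531 ± 28 in Fh1_fl_fl, and Cct7 797 ± 41.3 CPM in Rec, 912 ± 81.8 in clone1, 683 ± 28.6 in clone19 and 418 ± 13.5 in Fh1_fl_fl. Fkbp5, an Hsp90 cochaperone, averaged 16.5 ± 1.81 CPM in Rec, 68.8 ± 2.87 in clone1, 25.1 ± 3.5 in clone19 and 6.47 ± 0.453 in Fh1_fl_fl. Dnaja4, a J protein, averaged 2.04 ± 0.43 CPM in Rec, 12.4 ± 2.1 in clone1, 0.363 ± 0.273 in clone19 and 3.03 ± 0.552 in Fh1_fl_fl, and clone1 differed from clone19 by 5.02 (adjusted p = 6.88e-15, SE 0.27). Of 11 further mitochondrial chaperones and proteases, 8 were higher and 2 lower in Rec, 7 and 0 in clone1, and 8 and 2 in clone19. All tested genes had 33.4% higher and 37.4% lower in Rec, 38% and 40.5% in clone1, and 36.8% and 36.1% in clone19. The matrix protease gene Lonp1 averaged 217 ± 9.74 CPM in Rec, 489 ± 11.7 in clone1, 499 ± 45.5 in clone19 and 136 ± 3.76 in Fh1_fl_fl, and the inner membrane protease gene Afg3l2 102 ± 2.98 CPM in Rec, 209.5 ± 5.61 in clone1, 153 ± 9.95 in clone19 and 69.7 ± 3.68 in Fh1_fl_fl.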
